A study of Homo sapiens with 9 samples.

Results

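HES1 and POFUT1 are 2 genes of the Notch pathway, taken from the 6819 genes of a deposited RNA sequencing table. HES1 encodes a transcriptional repressor whose gene is a direct target of Notch signalling, and POFUT1 encodes the enzyme that adds O-fucose to Notch receptors. Members were found by their gene symbols, and each had 1 row, that is 1 transcript (HES1 NM_005524, POFUT1 NM_015352), among the 20909 rows listed. The pair was chosen from earlier results of the comparisons described below, so their differences between groups are given as a description and support no further statement. Every p-value printed for a member comes from the values that led to this choice, so it is no independent test. In the whole-table fit behind that choice (edgeR quasi-likelihood test with Benjamini-Hochberg adjustment), POFUT1 passed the 0.05 threshold in SH1 against control (adjusted p = 0.00869), and HES1 had an adjusted p = 0.0882 there and 0.134 in SH3 against control. The adjusted p of POFUT1 in SH1 was above 0.05 without control 2 (0.0535), control 3 (0.0524) or SH1 2 (0.0811), and without both control 1 and SH1 1 (0.0804). It was also above 0.05 with only the groups compared in the fit (0.273), with limma-trend at a pseudocount of 1 FPKM (0.0969) and with the DESeq2 Wald test (0.144).

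The cells were Caki-1, a human line from clear cell renal cell carcinoma, the most frequent form of kidney cancer. The study knocked down TAF1D, a subunit of the SL1 factor of RNA polymerase I, by short hairpin RNA (shRNA), and asks what the gene does in this cancer. There were 3 control libraries, whose genotype is labelled WT, 3 knockdown libraries labelled SH1 and 3 knockdown libraries labelled SH3. The labels do not say what vector the controls carried, what the codes SH1 and SH3 stand for, whether the lines are clones, or whether libraries of a group came from separate cultures, so the spread between libraries may be technical.

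Notch receptors are cut by proteases when a ligand on a neighbouring cell binds them, and the freed intracellular part enters the nucleus, joins the DNA-binding protein RBPJ and a Mastermind coactivator, and switches on target genes. HES1 is among the best known of these targets: it binds DNA as a basic helix-loop-helix repressor, recruits TLE corepressors, and also represses its own gene. POFUT1 works much earlier, in the endoplasmic reticulum, where it puts fucose on the EGF-like repeats of the receptor, a step needed for ligand binding in many settings. Other inputs than Notch also act on HES1 transcription. Protein, receptor cleavage and glycosylation were not measured here.

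The 250 bases before each RefSeq gene start are shown because both genes differed between groups at the RNA level and HES1 is a textbook RBPJ target. Both windows come from RefSeq on build GRCh38.p14 and were matched by symbol, 2 of 2 members. They lie on the plus strand, at chr3:194135898-194136147 for HES1 and chr20:32207630-32207879 for POFUT1, and each ends at the base before the annotated start. In the HES1 window, capitals mark TGGGAA and GTGGGAA, letters of the RBPJ site, and TTCACAC, which is GTGTGAA read on the other strand. In the POFUT1 window, capitals mark the GC box letters GGGCGG on either strand.
HES1: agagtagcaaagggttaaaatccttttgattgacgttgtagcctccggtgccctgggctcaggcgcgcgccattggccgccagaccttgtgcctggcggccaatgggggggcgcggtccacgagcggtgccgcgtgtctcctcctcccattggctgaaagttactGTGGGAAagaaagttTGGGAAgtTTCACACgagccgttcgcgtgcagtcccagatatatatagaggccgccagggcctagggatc
POFUT1: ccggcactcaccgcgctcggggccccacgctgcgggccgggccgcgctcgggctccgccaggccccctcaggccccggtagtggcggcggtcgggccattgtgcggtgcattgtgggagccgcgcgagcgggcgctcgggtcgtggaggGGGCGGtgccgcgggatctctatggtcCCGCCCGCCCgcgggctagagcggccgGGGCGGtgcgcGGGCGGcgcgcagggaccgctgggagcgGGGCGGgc

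The 2 windows shared few of the letters searched. TGGGAA was found 2 times in the HES1 window, at bases -84 to -79 and -70 to -65 before the start, and 0 times in that of POFUT1. Among all 35116 promoter windows of this length, 20.8% held TGGGAA at least 1 time on either strand and 2.90% at least 2 times. The longer form GTGGGAA, which overlaps the first of these matches, was in 5.43% of all windows, and GTGTGAA was in 2.48%. The N-box letters CACNAG, bound by HES proteins, were found 3 times in the HES1 window and 0 times in that of POFUT1 (32.0% of all windows). CACGNG, a further form of HES site, was found 4 times and 0 times (26.7% of all windows), and 2 of these 4 matches share their bases with an N-box match. TATATA was found 2 times in the HES1 window, overlapping each other (3.73% of all windows), and 0 times in that of POFUT1. GGGCGG was found 6 times in the POFUT1 window, with 2 of the matches overlapping, and 0 times in that of HES1 (42.6% of all windows had at least 1 match and 24.3% at least 2). The letters GCGTGGGCG, bound by EGR1, were in neither window (0.720% of all windows). G and C made up 81.6% of the POFUT1 window, more than in 98.0% of all windows, and 59.2% of that of HES1, where the median window had 58.0%. A match of letters is no measurement of binding.

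The table itself was a selection. All 20909 rows differed at least 2-fold in estimated count between control 1 and SH1 1, and between 51.51% and 64.85% of rows did so in any of the remaining 35 pairs. Choosing rows this way pulls control 1 and SH1 1 apart. POFUT1 lay just inside this limit, with a ratio of 2.05 between the 2 libraries that only 1.22% of rows fell below, and HES1 had a ratio of 3.03 (16.4% of rows below). Estimated counts of the listed rows added up to 1358215 to 1596467 per library, which is not the depth of a library. The TPM values of these rows (TPM is a share of all transcripts in a library) added up to 4.202% to 5.176% of all TPM. TAF1D had 0 rows, so its level is not shown here. Of 13 markers of clear cell carcinoma and proximal tubule, PAX8, MME and CDH6 were listed. PAX8 had a mean of 2.26 FPKM in control, 5.42 in SH1 and 5.30 in SH3, CDH6 NM_004932 had 0.607, 0.153 and 0.103, its row XM_017008910 had 0.31, 0.15 and 0, and the 3 MME rows were at 0 to 0.93. Of 4 endothelial markers 0 were listed. Of 6 fibroblast and smooth muscle markers PDGFRB, ACTA2 and MYH11 were listed, at means of 0 to 0.527 FPKM but for ACTA2 NM_001613, at 1.65 in control, 0 in SH1 and 0.81 in SH3. Of 5 blood cell markers CD68 alone was listed, with NM_001251 at 8.73, 13.5 and 9.38 FPKM and NM_001040059 at 2.06, 1.78 and 4.14. Many markers had no row, so the labelled cell type was not settled by them, and their part in the results was not tested.

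HES1 was higher in every knockdown library than in every control. Its level was 12.36, 9.02 and 13.9 FPKM (fragments scaled to transcript length and library total) in controls 1 to 3, 37.63, 37.59 and 69.93 in SH1 and 45.04, 51.2 and 47.16 in SH3. The lowest SH1 library lay 23.7 FPKM above the highest control and the lowest SH3 library 31.1 FPKM above it. A lack of overlap was not rare in this table: SH1 lay wholly above control in 9.63% of the 17495 rows tested and SH3 in 7.26%. All 6 knockdown libraries were above all controls in 2.45%, 429 rows. Group means were 11.8 ± 2.49 FPKM in control, 48.4 ± 18.7 in SH1 and 47.8 ± 3.13 in SH3 (SD, n = 3 each), which is 4.11 and 4.06 times the control mean. In bulk RNA, a difference in the number of cells with a transcript and one in the RNA per cell cannot be told apart.

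The 2 knockdown groups had nearly the same mean of HES1 but not the same spread. SH1 3 had 1.86 times the mean of the other two SH1 libraries, and without it the SH1 mean was 37.6 FPKM, 3.20 times control. The coefficient of variation was 38.6% in SH1, 21.2% in control and 6.55% in SH3. Counting error was smaller than this in each group, and came nearest to it in SH3 (2.54% to 2.72%). Rounded estimated counts were 275 to 408 in controls, 1116 to 2145 in SH1 and 1357 to 1552 in SH3, with a Poisson error of at most 6.03% in any library. SH1 1 and SH1 2 lay below every SH3 library and SH1 3 above every SH3 library, so SH1 and SH3 overlapped.

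POFUT1 was lower in every knockdown library than in every control, and lower in SH1 than in SH3. Its level was 40.05, 37.23 and 39.24 FPKM in controls 1 to 3, 19.65, 19.01 and 19.37 in SH1 and 31.2, 30.46 and 31.46 in SH3. The 3 groups did not overlap at any point. Of the rows tested, SH1 lay wholly below control in 6.45%, SH3 wholly below control in 5.08% and SH3 wholly above SH1 in 6.68%. The order control over SH3 over SH1 without overlap was found in 35 of the 17495 rows tested, 0.2%. Group means were 38.8 ± 1.45, 19.3 ± 0.321 and 31.0 ± 0.519 FPKM (SD, n = 3 each), so SH1 had 49.8% and SH3 79.9% of the control mean. The highest SH1 library lay 17.6 FPKM below the lowest control, and the highest SH3 library 5.77 FPKM below it.

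The spread of POFUT1 within groups was small, below counting error in SH1 and SH3 and above it in control. Its coefficient of variation was 3.74% in control, 1.66% in SH1 and 1.67% in SH3. Rounded estimated counts were 3847 to 4052 in controls, 1928 to 2016 in SH1 and 3132 to 3267 in SH3, with Poisson errors of 1.57% to 2.28%. These errors cover counting alone.

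**Figure D1:**
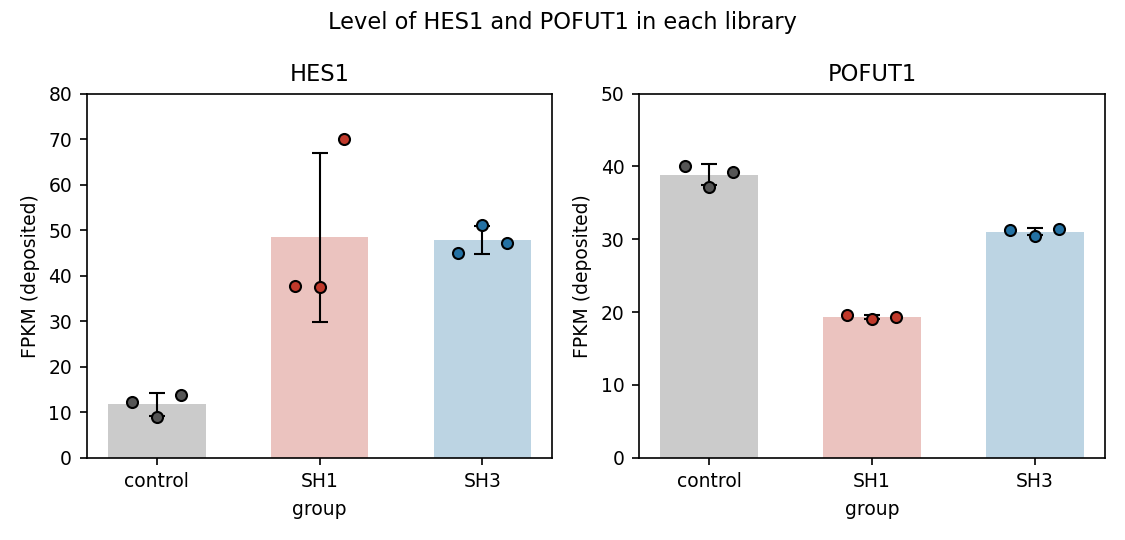
Level of HES1 (left) and POFUT1 (right) by group, in deposited FPKM. Points are libraries, bars are means and error bars are SD (n = 3). All knockdown points of HES1 lie above the controls, with SH1 3 at 69.93 FPKM, and the 3 groups of POFUT1 are separate.

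The 2 members therefore followed different orders. HES1 was low in control and at a like mean in SH1 and SH3, and POFUT1 was stepped, with SH3 between control and SH1. FPKM is per transcript length, so levels of the 2 listed transcripts can be set against each other within a library. HES1 had 0.309, 0.242 and 0.354 times the FPKM of POFUT1 in controls 1 to 3, 1.92, 1.98 and 3.61 times in SH1 and 1.44, 1.68 and 1.499 times in SH3. Of these 2 transcripts, that of POFUT1 was thus the more abundant in each control and that of HES1 in each knockdown library. Other transcripts of the genes are not covered.

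**Figure D2:**
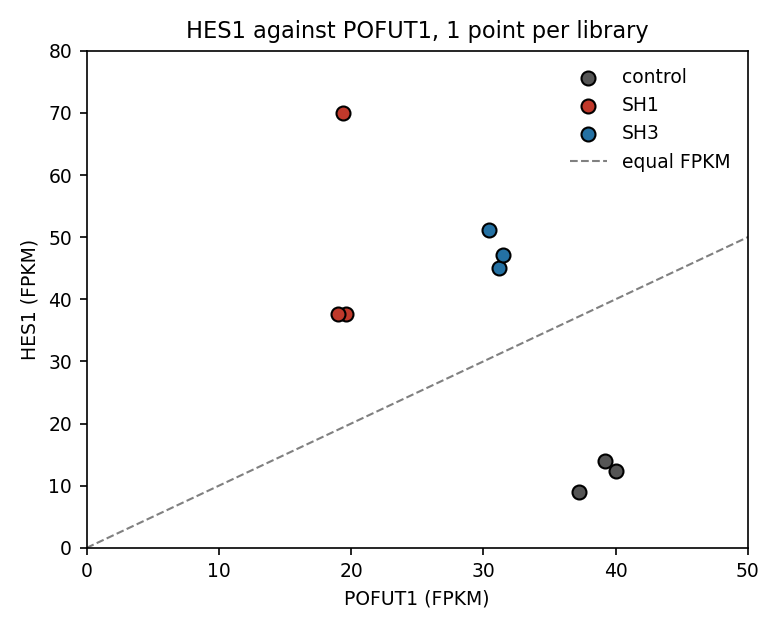
HES1 (vertical, FPKM) against POFUT1 (horizontal, FPKM), 1 point per library, with a dashed line of equal level. Controls lie below the line, all knockdown libraries above it, and SH1 and SH3 separate along the POFUT1 axis and not along that of HES1.

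The fitted fold changes, scaled to the totals of the listed rows alone, gave a like picture on the log2 scale. For HES1 the edgeR log2 fold change ± SE was 1.93 ± 0.32 in SH1 against control (95% interval 1.21 to 2.66) and 1.99 ± 0.32 in SH3 against control (1.26 to 2.71). SH3 minus SH1 was 0.05 ± 0.31, with an interval of -0.65 to 0.75 that leaves room for a difference in either direction. For POFUT1 the values were -1.11 ± 0.12 in SH1 (-1.39 to -0.84) and -0.36 ± 0.12 in SH3 (-0.64 to -0.09). SH3 minus SH1 was 0.75 ± 0.12 for POFUT1 (0.47 to 1.03). Both comparisons with control use the same 3 control libraries. Over all rows tested, 0.137% passed the threshold in SH1 against control (24 rows), 0.0286% in SH3 against control (5 rows), 0.12% for the average of both (21 rows) and 0.0972% in SH3 against SH1 (17 rows).

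Because each gene had 1 listed row, the sum per Gene ID equalled that row, and only the fit around it changed. In the fit of sums, HES1 was at 1.89 ± 0.28 in SH1 and 1.95 ± 0.28 in SH3, and POFUT1 at -1.17 ± 0.09 and -0.40 ± 0.09. The edgeR adjusted p was 0.0153 and 0.0374 for HES1, and 0.0008 and 0.151 for POFUT1. These come from the same single rows by which the pair was chosen, so they are no support. Many more features passed the threshold there: 2.14% of 6393 sums in SH1 against control and 0.407% in SH3 against control. The further curated transcript of POFUT1, NM_172236, was not analysed here, so these values speak for a transcript and not for all RNA of the gene.

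The unit mattered little for either gene. In TPM, the mean of HES1 was 4.24 times control in SH1 and 3.95 times in SH3, and that of POFUT1 was 52.0% and 78.2% of control. In the authors' normalized read counts HES1 was at 3.93 and 4.03 times control, and POFUT1 at 47.4% and 79.1%. Without control 1 and SH1 1, the pair on which the table was selected, HES1 had log2 fold changes of 2.14 in SH1 and 2.02 in SH3, and POFUT1 of -1.09 and -0.35 (edgeR adjusted p = 0.0804 and 0.756). Over the 20 other settings tried, HES1 stayed between 1.58 and 2.14 in SH1 and between 1.87 and 2.13 in SH3. POFUT1 stayed between -1.19 and -0.97 in SH1 and between -0.46 and -0.31 in SH3. The sign of HES1 in SH3 against SH1 was not fixed by these data: its values ran from -0.12 to 0.42, the highest of them without SH1 3.

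**Figure D3:**
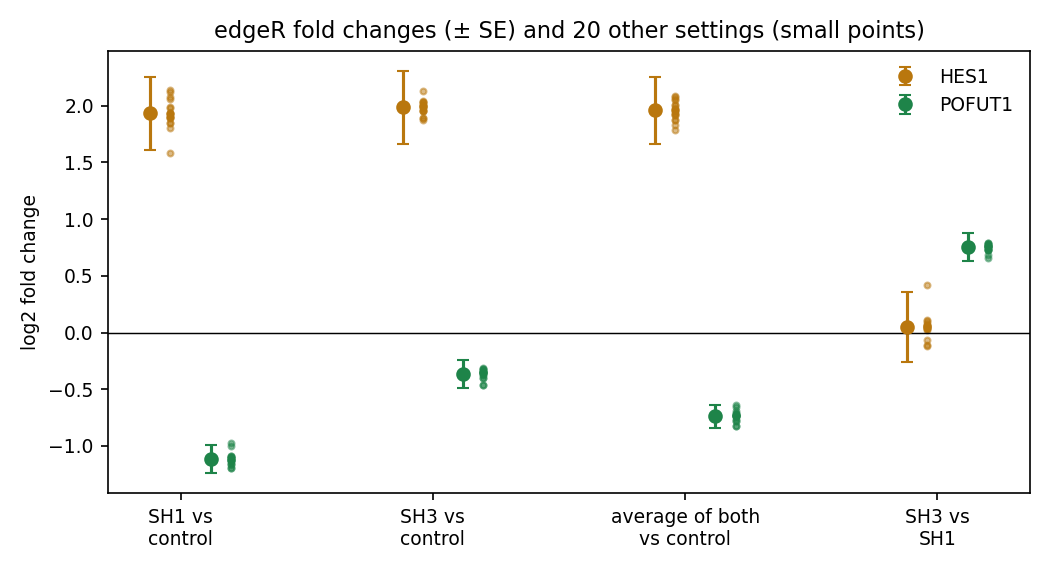
Log2 fold changes of HES1 and POFUT1 in the 4 comparisons. Large points with bars are the edgeR estimates ± SE, and small points are the 20 other settings. HES1 is near 2 in both knockdown groups and near 0 between them, and POFUT1 is near -1.1 in SH1 and nearer to 0 in SH3.

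The rest of the pathway was described from a list of 94 Notch genes arranged by role, of which 39 genes with 133 rows were listed and 117 rows of 37 genes passed the filter on low counts. Leaving out HES1 and POFUT1, 0 of the remaining 115 rows passed the edgeR threshold in any of the 4 comparisons. At an unadjusted p under 0.05 there were 10 rows in SH1 against control (5 higher, 5 lower), 5 in SH3 against control (3 higher, 2 lower) and 7 in SH3 against SH1, of 115 rows each. Of all rows tested, 7.81%, 5.85% and 6.25% did so. The median log2 fold change of the list was 0.26 in SH1, -0.07 in SH3 and -0.25 in SH3 against SH1, beside 0.04, 0.03 and 0 over all rows tested. Setting rows at 0 in a group to their bound keeps their direction, so the unchanged median is no check. In SH1 63 of 115 rows were positive, in SH3 56 and in SH3 against SH1 49. The DESeq2 Wald test called 5 of the 106 list rows it gave an adjusted p in SH1 against control (3.12% of all such rows) and 3 of 106 in SH3 against control (2.27%). It called 4 of 108 for the average of both knockdown groups (2.85%) and 2 of 104 in SH3 against SH1 (2.69%).

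Where a gene had several rows, that of the highest mean FPKM was named (other than for FURIN and MIB2, named for their values), and other rows of the gene could differ from it. Ligands and receptors were almost unlisted. Of 7 ligand genes DLK2, a noncanonical ligand-like protein, had rows, and of the 4 receptor genes 0 had a row. DLK2 NM_206539 was at 0.64, 0.71 and 1.1 FPKM in control, 0.03, 0.52 and 0.44 in SH1 and 1.01, 0.87 and 1.04 in SH3, with an edgeR adjusted p of 1.00 or close to it in both comparisons with control. The DLK2 row NM_001286655 went the other way in SH1: it was listed at 0 in every control, at 0.57, 0.14 and 0.65 FPKM in SH1 and at 0.48, 0 and 0 in SH3. It was at least 15.7-fold higher in SH1 against 3 counts over the control group (edgeR unadjusted p = 0.0427, adjusted p = 0.630). The receptor whose fucosylation POFUT1 carries out was therefore not analysed here.

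Of 17 genes of Notch glycosylation, 10 were listed, and 0 of the 18 rows tested other than POFUT1 passed the threshold (9 positive and 9 negative in SH1, 10 and 8 in SH3). EOGT, which adds GlcNAc to EGF-like repeats (NM_001278689), was at 3.77, 4.16 and 5.23 FPKM in control, 8.31, 6.29 and 4.89 in SH1 and 3.61, 1.63 and 3.56 in SH3, so SH1 and control overlapped. GMDS, an enzyme of the synthesis of GDP-fucose, the sugar donor of POFUT1 (XM_011514500), was at 4.84, 4.44 and 3.23 FPKM in control, 1.38, 5.38 and 5.45 in SH1 and 6.43, 5.96 and 4.14 in SH3, and its 3 groups overlapped. POFUT1 thus had the tightest groups of the 3 glycosylation genes with the highest levels.

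Of 9 genes of receptor cleavage, 6 were listed and 0 of 9 rows passed the edgeR threshold. The gamma-secretase subunit APH1A (NM_001243771) ran from 3.83 to 27.59 FPKM within the controls alone and overlapped with SH1 and SH3 (7.68 to 14.31). PSEN2, a catalytic subunit of the same protease (NM_012486), was listed at 0 in 2 controls and 1.47 FPKM in the third, beside 0.82 to 2.52 in SH1 and 1.24 to 2.55 in SH3. APH1B NM_001145646, a further gamma-secretase subunit, was listed at 0 in every control, at 0.62, 2.6 and 1.4 FPKM in SH1 and at 0.49, 1.13 and 0.42 in SH3. Against 3 counts over the control group it was at least 111-fold higher in SH1 and 51-fold higher in SH3 (edgeR adjusted p = 0.238 and 0.530, DESeq2 adjusted p = 4.1e-06 and 0.00014). ADAM17, a protease that can release the receptor ectodomain (NM_001382778), was also listed at 0 in every control, at 1.22, 0.03 and 0.67 FPKM in SH1 and at 0.1, 2.22 and 1.65 in SH3. In these APH1B and ADAM17 rows every knockdown library was above every control, as in 2.45% of all rows tested. FURIN NM_001289824, whose product cuts the receptor precursor, was listed at 0 in every control and had 1.42 FPKM in SH1 1, 0 in the other two SH1 libraries and 0.48, 0.25 and 0 in SH3. DESeq2 called the ADAM17 row (adjusted p = 0.00795 and 0.00135) and the FURIN row (adjusted p = 2.6e-06 and 1.0e-05) in both comparisons with control, and edgeR called neither. The other tested row of FURIN, NM_001382621, was at 0.29, 0.28 and 0.81 FPKM in control, 0, 0 and 0.21 in SH1 and 0, 0 and 0.82 in SH3, so the 2 FURIN rows differed in direction. ADAM17, FURIN and MIB2 were named after their values were seen, and each row is 1 transcript.

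Of 14 genes of endocytosis and ubiquitin ligation, 8 were listed, and 0 of 23 rows passed the edgeR threshold. ITCH, a ubiquitin ligase that targets Notch (XM_005260570), was at 8.44, 9.6 and 11.14 FPKM in control, 21.32, 16.76 and 13.39 in SH1 and 9.27, 5.41 and 10.2 in SH3. All SH1 libraries were above all controls, as in 9.63% of all rows tested. SH3 overlapped with control, and the log2 fold change in SH1 was 0.71 ± 0.29 (edgeR adjusted p = 0.626). DTX3, of the Deltex ligases (XM_011538022), was at 1.37 to 2.72 FPKM in control, 3.68 to 4.55 in SH1 and 1.4 to 2.15 in SH3. Its SH1 libraries were also above all controls, as in 9.63% of all rows tested. DTX2 (NM_001102594) overlapped between all groups (0.66 to 2.93 FPKM). MIB2, a ligase that promotes ligand endocytosis (XM_017000361), was at 0.24, 0.83 and 0.53 FPKM in control, 0.01, 0 and 0 in SH1 and 0.3, 0.2 and 0.21 in SH3. This MIB2 row lay wholly below control in SH1, as 6.45% of all rows tested did. Its rounded counts were 0 in all SH1 libraries, which makes it at least 37.6-fold lower in SH1 than in control, with an edgeR adjusted p = 0.427 and a DESeq2 adjusted p = 0.00102. That row does not stand for the gene: of 9 MIB2 rows tested, 5 were positive and 4 negative in SH1, and 4 and 5 in SH3. MIB2 NM_001170686 was also listed at 0 in every SH1 library (0.26 to 0.51 FPKM in control), whereas MIB2 XM_011540741 was at 0, 0 and 0.18 FPKM in control and 0.33, 0.16 and 0.71 in SH1.

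In the nucleus, 2 of 10 activator genes and 6 of 13 corepressor genes were listed. RBPJ was listed but did not pass the filter, and the 2 activator rows tested were both of the coactivator CREBBP. CREBBP XM_005255124 was at 0.44 to 1.54 FPKM in control, at 0 to 4.5 in SH1 and at 0 to 0.27 in SH3. Of the corepressors, TLE1, a partner of HES1 (XM_006717262), was at 1.55, 3.07 and 3.62 FPKM in control, 3.19, 2.64 and 0.45 in SH1 and 3.19, 0.07 and 2.59 in SH3. Its groups overlapped throughout, as did those of CTBP1 (NM_001377187, 1.89 to 10.74 FPKM in control and 3.92 to 13.63 in the knockdown libraries). CTBP2 (XM_024447830) was at 4.34 to 5.45 FPKM in control, 1.62 to 4.14 in SH1 and 1.57 to 4.3 in SH3, without overlap with control. Of all rows tested, SH1 lay wholly below control in 6.45% and SH3 in 5.08%. Of 53 corepressor rows, 0 passed the threshold.

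Among 12 Notch target genes, HES1, HES6 and MYC were listed. MYC, a growth regulator and a Notch target in T cells (NM_001354870), was at 3.5, 3.83 and 4.15 FPKM in control, 1.33, 1.84 and 2.23 in SH1 and 3.85, 3.8 and 2.82 in SH3. SH1 was thus below control without overlap, opposite to HES1, as SH1 was in 6.45% of all rows tested. The MYC row did not pass the threshold (log2 fold change -1.19 ± 0.50, edgeR adjusted p = 0.628). HES6, a relative of HES1 that opposes it (NM_018645), was listed at 0, 2.43 and 2.13 FPKM in control, 1.99, 2.52 and 1.81 in SH1 and 4.26, 5.04 and 3.79 in SH3. All SH3 libraries of HES6 were above all controls, as in 7.26% of all rows tested, with an adjusted p of 1.00.

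Of 8 genes reported as repressed by HES1, CDKN1A, CDKN1C and CYLD were listed. CDKN1A, the cell cycle inhibitor p21 (NM_000389), was at 5.57, 5.89 and 5.48 FPKM in control, 12.82, 13.06 and 15.6 in SH1 and 15.5, 16.69 and 17.45 in SH3. Every knockdown library was above every control, as for HES1 and as in 2.45% of all rows tested. The row did not pass the edgeR threshold (1.18 ± 0.34, adjusted p = 0.534 in SH1, and 1.51 ± 0.34, adjusted p = 0.502 in SH3), but its sum per Gene ID did (1.17 ± 0.18, adjusted p = 0.0166, and 1.51 ± 0.18, adjusted p = 0.0159). CDKN1C, the inhibitor p57 (a further copy of NM_001122630), was at 0.6, 0.41 and 0.47 FPKM in control, listed at 0 in every SH1 library and at 0.28, 0.84 and 0.23 in SH3. It was at least 17.7-fold lower in SH1 than in control (edgeR adjusted p = 0.534, DESeq2 adjusted p = 0.0230). SH1 lay wholly below control there, as in 6.45% of all rows tested. CYLD NM_001378746, a deubiquitinase, had 3.61 FPKM in control 2 and at most 0.7 in every other library.

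**Figure D4:**
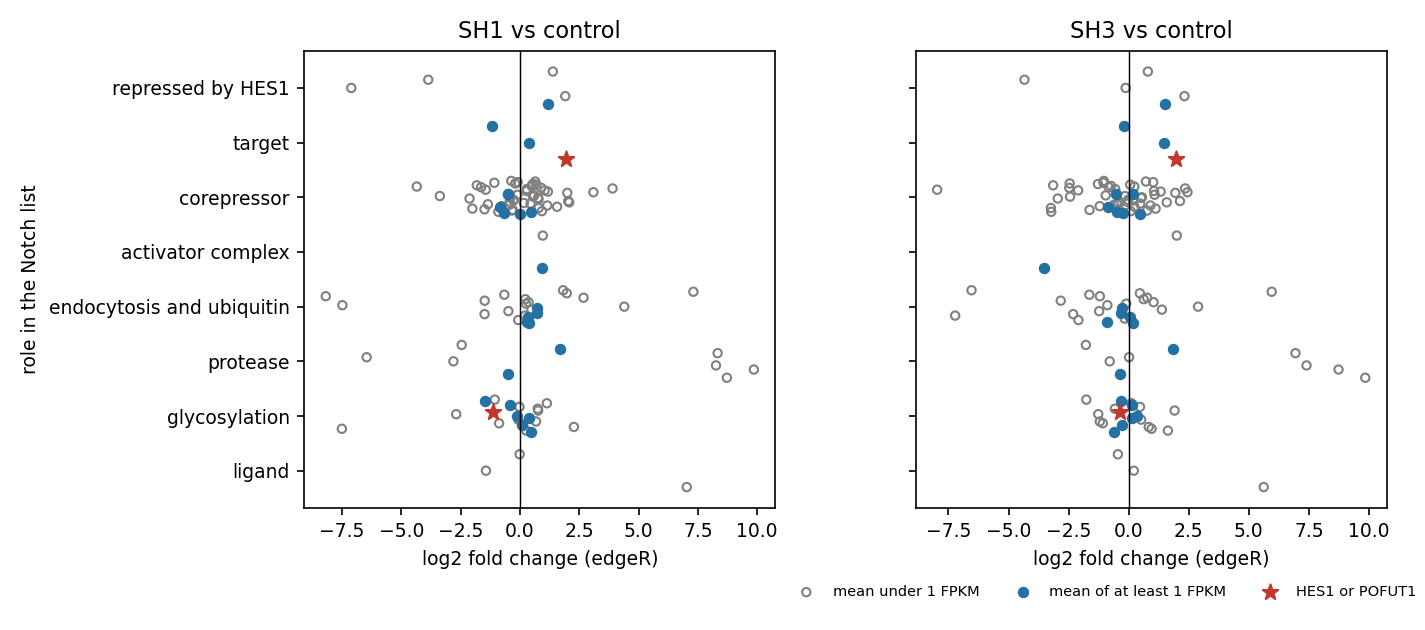
Log2 fold change (edgeR, horizontal) of each tested row of the Notch list by role, in SH1 (left) and SH3 (right) against control. Stars are HES1 and POFUT1, filled points have a mean of at least 1 FPKM, and open points lie below it. The widest values are open points, and 0 rows other than POFUT1 in SH1 passed the threshold.

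When sums per Gene ID were tested, 2 of the 35 Notch genes besides the members passed the edgeR threshold in SH1 against control, CDKN1A and APH1B, both higher. In SH3 against control 1 of 35 passed, CDKN1A, and 0 of 35 in SH3 against SH1. For the average of both knockdown groups, CDKN1A and APH1B passed again. The share of all sums called was 2.14%, 0.407%, 1.36% and 1.11% in these comparisons. Median log2 fold changes over the 35 sums were 0.05 in SH1 and -0.16 in SH3, beside -0.03 in each over all sums.

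Rows whose pattern was most like each member were found by Pearson's r of log2(FPKM + 1) over the 9 libraries, among 4935 tested rows with a mean of at least 1 FPKM. These r values mostly follow the differences between the 3 groups, and libraries of a group are not independent of each other in this respect. Closest to HES1 was EGR1, an immediate early transcription factor (r = 0.98), at 22.05, 20.35 and 27.82 FPKM in control, 92.79, 81.06 and 127.74 in SH1 and 107.92, 93.97 and 128.08 in SH3. Within SH1, EGR1 was highest in SH1 3, as HES1 was. CDKN1A (r = 0.96), the growth factor gene CSF3 (NM_000759, r = 0.96), the cytokine gene IL6 (XM_005249745, r = 0.96) and TNFAIP3 (NM_001270508, r = 0.96), whose product restrains NF-kB signalling, came next. IL6 was at 2.54, 1.71 and 2.29 FPKM in control, 6.32, 4.41 and 6.88 in SH1 and 5.56, 5.25 and 6.94 in SH3. TNFAIP3 NM_001270508 was listed at 0 in every control and at 1.64 to 4.47 FPKM in the knockdown libraries. Most unlike HES1 were FST, which encodes follistatin (r = -0.96), RAB34 (r = -0.95) and the carboxypeptidase gene CPA4 (r = -0.94), which was at 15.82, 17.06 and 16.21 FPKM in control and 0.5 to 2.31 in the knockdown libraries.

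Closest to POFUT1 was IGFBP3, which binds insulin-like growth factors (r = 0.998), at 30.12, 24.96 and 28.87 FPKM in control, 2.55, 2.33 and 2.81 in SH1 and 14.82, 15.2 and 15.31 in SH3. The order of the groups was that of POFUT1, but the range was wider: SH1 had 0.0916 times the control mean of IGFBP3 and 0.498 times that of POFUT1. ADAMTS1, a secreted metalloproteinase (r = 0.985), INO80C, of a chromatin remodelling complex (r = 0.981), UBASH3B (r = 0.968) and keratin 19 (KRT19, r = 0.965) came next. KRT19 was at 70.11, 89.48 and 82.45 FPKM in control, 15.39, 17.54 and 21.6 in SH1 and 60.29, 66.56 and 60.55 in SH3. The opposite order was found in the adhesion molecule gene L1CAM (NM_001143963, r = -0.983), at 17.34, 27.71 and 26.07 FPKM in control, 95.06, 107.35 and 128.54 in SH1 and 34.15, 36.78 and 39.9 in SH3. KYNU (r = -0.978) and FMNL1 (r = -0.973) were next. The nearest protein-coding neighbours of HES1 (LOC102724877 and CPN2) and of POFUT1 (PLAGL2 and KIF3B) had 0 rows and were not analysed here.

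**Figure D5:**
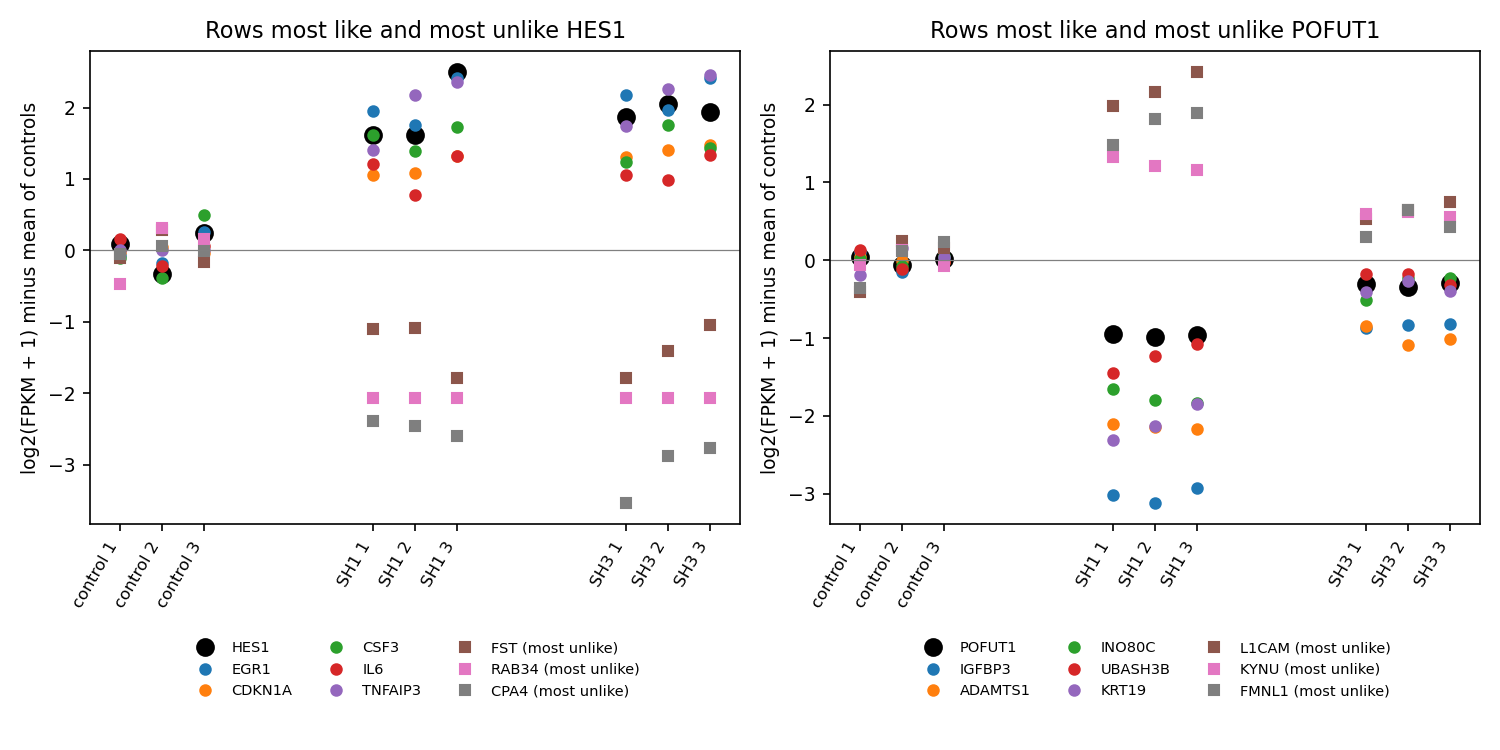
Log2(FPKM + 1) minus the mean of the controls in each library, for HES1 (left) and POFUT1 (right, black circles), the 5 rows most like each (coloured circles) and the 3 most unlike (squares). Rows like HES1 sit at similar heights in SH1 and SH3, and rows like POFUT1 are lowest in SH1 and between in SH3.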

How the data were processed

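Total RNA was measured in 9 libraries. Per the file headers, the authors deposited FPKM, TPM and an estimated count per transcript (65.11% of the values not whole). They also deposited a normalized read count, a signal equal to the estimated count over a factor per library. The submitters' processing notes name the mouse build mm10, whereas 20900 of 20909 rows carry gene numbers of human RefSeq, so the values were read as human. Aligner and counter are not given in the sources used here.

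Libraries were grouped by their labels, with 0 columns left unmapped. Rounded counts were fitted in edgeR 4.0.16 under R 4.3.3 (quasi-likelihood test, TMM, filterByExpr with a minimum count of 10, robust), in 1 fit of all 9 libraries, leaving 17495 rows. Library sizes in the fit were the totals of the listed rows. TMM scaling takes most rows as unchanged, whereas all rows were selected to differ between control 1 and SH1 1. Each knockdown group and the average of the 2 were set against control, and SH3 against SH1. Adjustment was by Benjamini-Hochberg over all rows, with a threshold of 0.05. The SE is the log2 fold change over the square root of the F statistic. A count of 0 over a group was set to 3 to bound a fold. The code of the fit was also run on simulated counts with 200 changed rows of high count. That simulation had a fixed dispersion and no selection of rows, so it does not show how the fit performs on this table. FPKM described levels.

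The members and lists were chosen with earlier results of these data known. The text names both members, any Notch row past the threshold, up to 3 genes of the highest mean FPKM per role and the 5 most like and 3 most unlike rows. Alternatives were DESeq2 (1.42.0), limma-trend (3.58.1) on log2 of FPKM plus 1 or 0.1, other scalings and filters, only the groups compared, a replicate block, leaving out libraries, and sums per Gene ID.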

Additional observations from a re-analysis of the deposited data

How the results depend on the processing

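For HES1, all 20 alternatives in each of the 4 comparisons kept its value within the spread between replicates. Its adjusted p passed 0.05 in only 4 of 20 in SH1 and in SH3 against control. These were the DESeq2 Wald test, limma-trend at both pseudocounts and sums per Gene ID. POFUT1 passed in 13 of 20 in SH1, 0 of 20 in SH3, 4 of 20 for the average (edgeR adjusted p = 0.0404, and up to 0.815 with only the groups compared) and 1 of 20 in SH3 against SH1. With DESeq2 size factors and with the DESeq2 Wald test alike, POFUT1 moved to -1.19 in SH1, -0.46 in SH3 and -0.82 for the average. With limma-trend it was -0.97 in SH1, -0.64 for the average and 0.66 in SH3 against SH1 at a pseudocount of 1 FPKM, and -1.0, -0.66 and 0.68 at 0.1 FPKM. Leaving out each library in turn gave POFUT1 -1.13 to -1.09 in SH1, -0.37 to -0.32 in SH3, -0.74 to -0.71 for the average and 0.74 to 0.79 in SH3 against SH1. HES1 ran from 1.58 to 2.12, 1.87 to 2.13, 1.79 to 2.09 and -0.12 to 0.42 in the same order. The cause of these shifts was not tested. Both members were chosen from these comparisons, so the numbers of settings passed are a description only.

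Calls in the Notch list besides the members rose from 0 to 5 in SH1, 3 in SH3, 4 for the average and 2 in SH3 against SH1 with the DESeq2 Wald test. They were 2, 1 and 2 for sums per Gene ID in the first 3 comparisons, and 1 for the average with limma-trend at 0.1 FPKM. The edgeR fit per row, with 0 such calls from all 9 libraries, also gave 0 in all 4 without any single library. Calls of DESeq2, limma-trend and the sums were not refitted without a library. Over the whole table the edgeR calls in SH1 against control were 24, and 492 with DESeq2, 39 and 81 with limma-trend at 1 and 0.1 FPKM, and 3 with only the groups compared. In SH3 against control they were 5, and 358 with DESeq2 and 0 with only the groups compared. These counts changed when single libraries were left out, also libraries outside the comparison, and the cause was not tested. In SH1 against control they were 13 without control 2, 15 without control 3, 10 without SH1 2 and 15 without SH3 1 or SH3 3. In SH3 against control they were 12 without control 1, 2 without control 2 or 3, 1 without SH1 1 and 3 without SH1 2 or 3. For the average they fell from 21 to between 3 (without control 2) and 7 when any library but control 1 was left out. In SH3 against SH1 they fell from 17 to between 2 (without SH1 2) and 10 when any library but control 1 was left out. The labels number libraries 1 to 3 in each group. Over 9 same-number pairs the correlation of deviations was -0.276 to 0.0324, with 0 pairs over 0.1, and the numbers were not taken as pairs. The lowest value was that of control 1 and SH1 1. The selection of rows pulls these libraries apart, so the check cannot decide whether control and SH1 libraries are paired. With a replicate block HES1 was at 1.90 in SH1 and 2.01 in SH3, POFUT1 at -1.11 and -0.36 (edgeR adjusted p = 0.048 in SH1, and 0.199 for the average in place of 0.0404), and 16, 2, 7 and 5 rows were called over the table in place of 24, 5, 21 and 17. Precision is limited by 3 libraries per group.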

Other observations

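The deposited table annotates its rows with pathway names, which give a second grouping of the same genes that was looked at after the data were seen. Under Notch signalling it lists 66 rows of 16 genes, HES1 among them, and under other types of O-glycan biosynthesis 65 rows of 19 genes, POFUT1 among them. Without the members, 54 rows of 14 genes of the Notch group were tested by edgeR, and 0 passed the threshold in any of the 4 comparisons. At an unadjusted p under 0.05 there were 3 in SH1, 4 in SH3 and 1 in SH3 against SH1. Over all rows tested, 7.81%, 5.85% and 6.25% had such a p. Median log2 fold changes were 0.29 in SH1, -0.29 in SH3 and -0.58 in SH3 against SH1 (20 rows positive, 34 negative), beside 0.04, 0.03 and 0 over all rows tested. Of the 59 O-glycan rows of 18 genes, 0 passed as well, with 5, 1 and 6 at an unadjusted p under 0.05. Their medians were 0.33 in SH1, -0.08 in SH3 and 0.09 in SH3 against SH1. DESeq2 was not counted over these 2 groups.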
